A study of Mus musculus with 5 samples.

Results

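The 10 genes described here carry iron into, through and out of cells: Tfrc, Steap3, Steap4, Slc11a1 and Slc11a2 in uptake, Ftl1 and Fth1 in storage, Slc40a1 and Cp in export, and Hmox1 in the release of iron from heme. They were chosen by symbol with earlier results of these data known, and all 10 were found among the 32285 genes of each of the 5 libraries. The libraries came from kidneys of wild-type mice of the strain C57BL/6, all male and between 8 and 10 weeks of age. Aristolochic acid I (AAI), a plant toxin that injures the renal tubule, was injected intraperitoneally at 3 mg/kg every 3 days over 2 weeks. The control group received vehicle and was taken at week 0 (1 library), the acute kidney injury (AKI) group was taken at week 2 (2 libraries), and the chronic kidney disease (CKD) group was taken at week 4, after 2 weeks without AAI (2 libraries). Kidneys were dissociated with enzymes and sequenced as single cells by the droplet method with 3′ chemistry. How many animals went into a library is not given in the sources used here, so p-values measure the spread between these libraries.

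Iron bound to transferrin enters a cell through the transferrin receptor (Tfrc), is reduced in the endosome by a STEAP reductase (Steap3, Steap4) and crosses into the cytosol through the divalent metal transporters (Slc11a2, and in the phagosome of macrophages Slc11a1). Iron that is not used is stored in ferritin, built from light (Ftl1) and heavy (Fth1) chains, and leaves the cell through ferroportin (Slc40a1), after which the ferroxidase ceruloplasmin (Cp) oxidizes it for loading onto transferrin. Macrophages also obtain iron by degrading heme with heme oxygenase 1 (Hmox1). The members are spread over the genome, 3 of them on chromosome 1. On GRCm39 they lie at chr16:32427556-32451612 (Tfrc, plus strand), chr1:45947211-45965683 (Slc40a1, minus strand), chr1:74414303-74425448 (Slc11a1, plus strand), chr15:100285776-100322953 (Slc11a2, minus strand), chr1:120118487-120200435 (Steap3, minus strand), chr5:8010260-8032214 (Steap4, plus strand), chr7:45107367-45109308 (Ftl1, minus strand), chr19:9957911-9962462 (Fth1, plus strand), chr8:75820241-75827217 (Hmox1, plus strand) and chr3:20011090-20063930 (Cp, plus strand).

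Some of these genes share the iron-responsive element, a hairpin in the untranslated region (UTR) to which the iron regulatory proteins bind when iron is scarce. In a 5′ UTR it holds translation back, and in a 3′ UTR it protects the transcript. These libraries count mRNA and do not read translation. The elements found in the canonical transcripts of the members (GRCm39, GENCODE vM39) are shown to let the uptake gene be compared with the storage and export genes, in DNA letters on the transcript strand, with the loop CAGTGN in capitals.
Tfrc 3′ UTR, plus strand, chr16:32450038-32450064: attatcggaagCAGTGCcttccataat
Tfrc 3′ UTR, plus strand, chr16:32450417-32450443: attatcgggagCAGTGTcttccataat
Tfrc 3′ UTR, plus strand, chr16:32450482-32450508: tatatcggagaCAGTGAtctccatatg
Tfrc 3′ UTR, plus strand, chr16:32450529-32450555: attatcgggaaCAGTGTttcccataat
Slc40a1 5′ UTR, minus strand, chr1:45964626-45964652: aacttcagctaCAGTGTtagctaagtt
Ftl1 5′ UTR, minus strand, chr7:45109204-45109230: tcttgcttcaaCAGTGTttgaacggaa
Fth1 5′ UTR, plus strand, chr19:9960097-9960123: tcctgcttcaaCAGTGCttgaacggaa
Each element has an unpaired C below an upper stem of 5 pairs, with at least 4 of 5 pairs in the lower stem and G-T pairs allowed. By this rule 4 elements lay in the 3′ UTR of Tfrc and 1 each in the 5′ UTRs of Slc40a1, Ftl1 and Fth1, and no match was found in the canonical transcripts of the other 6 members. Other transcripts of the members were not searched. Over all canonical transcripts the rule matched 6 of 20696 5′ UTRs (0.0290%) and 12 of 21536 3′ UTRs (0.0557%). A match in letters is a description and was not tested for binding here.

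After filters, 53718 of 72896 barcodes were kept, 8496 in the control, 10199 and 9910 in AKI and 16330 and 8783 in CKD, with a median of 2877 to 5625 unique molecular identifiers (UMIs, counted transcripts) per cell. Of all barcodes in the control, 38.7% were over the mitochondrial limit of 30%, against 11.1% to 12.7% in the other libraries. The members and the other listed iron genes were kept out of the clustering. The control stood apart in a further way, since 100 of its kept cells shared a barcode with a cell of CKD 2 that had over 20 times their UMIs, where no other pair of libraries had more than 2 such cells. Free RNA was not removed: in macrophage-like cells, 5 markers of the connecting tubule summed to 20.01 UMIs per 10000 in the control, 1.65 and 1.23 in AKI and 3.46 and 0.415 in CKD. Macrophage-like cells carried their 7 own markers at 112 in the control, 142 and 141 in AKI and 42.1 and 46.7 in CKD, all 7 of them detected. They carried 5 erythrocyte markers, 1 of them at 0, at 0.00343 to 0.0249. Levels are given as UMIs of a gene per 10000 UMIs of a cell type, summed within each library, and are compared within a gene only. With cells pooled in this way, an exact 95% Poisson interval given with a level covers counting error only.

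**Figure D1:**
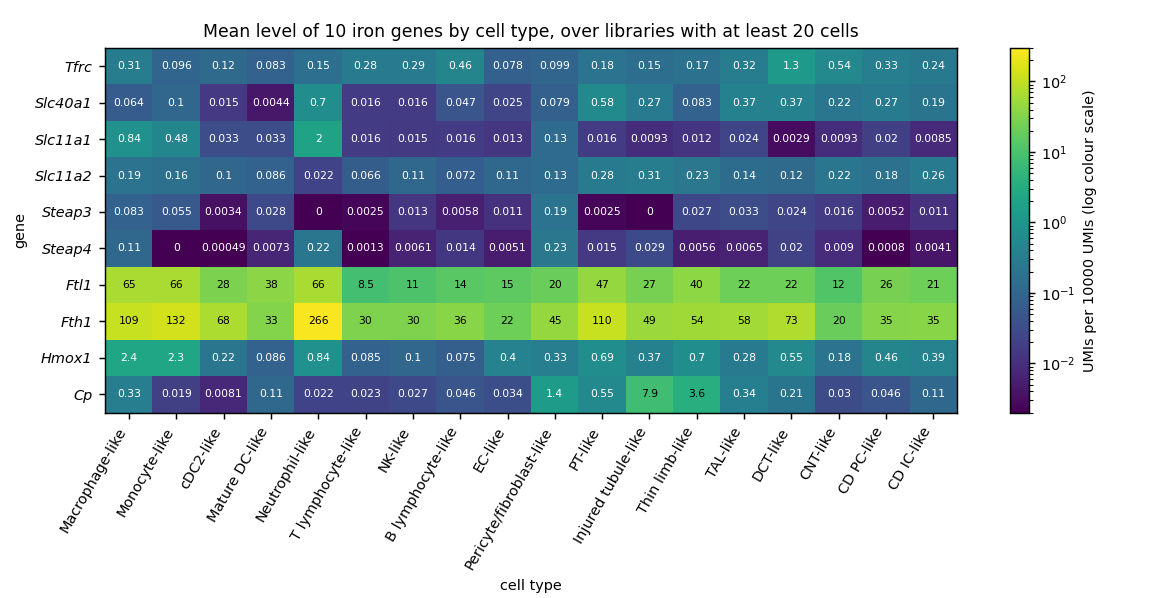
Levels of the 10 genes (rows) in the cell types (columns) as a heat map on a log10 scale, each cell giving the mean UMIs per 10000 UMIs over the libraries with at least 20 cells of that type. Slc11a1 and Hmox1 are highest in macrophage-like, monocyte-like and neutrophil-like cells, Cp is highest in injured tubule-like cells at 7.91, and Tfrc is highest in DCT-like cells at 1.28 among the types drawn. Plasmacytoid dendritic-like cells, with 1 such library, are not drawn.

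Across the kidney, Tfrc, the entry point for transferrin-bound iron, was spread over many cell types. Its level was 1.28 ± 1.04 (SD, n = 5) in distal convoluted tubule (DCT)-like cells, 0.541 ± 0.153 (SD, n = 5) in connecting tubule (CNT)-like cells, 0.464 ± 0.184 (SD, n = 5) in B lymphocyte-like cells and, at the low end, 0.0783 ± 0.0416 (SD, n = 5) in endothelial (EC)-like cells. In DCT-like cells it stood at 3.12 in the control, 0.763 and 0.573 in AKI 1 and AKI 2, and 0.92 and 1.02 in CKD 1 and CKD 2, so the control lay far above the rest. Among the 17 cell types with at least 20 cells in 3 or more libraries, the ranges of all neighbours in the order overlapped for Tfrc. Macrophage-like cells came in the middle of the order, with an SD as large as the mean, 0.309 ± 0.308 (SD, n = 5). Plasmacytoid dendritic-like cells reached 20 cells in CKD 2 only and stood at 1.78 there.

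The other uptake genes each had their own leading cells. Slc11a1, the phagosomal transporter also known as Nramp1, reached 1.96 ± 0.869 (SD, n = 3) in neutrophil-like cells and 0.836 ± 0.463 (SD, n = 5) in macrophage-like cells, whose ranges overlapped. Next came pericyte/fibroblast-like cells at 0.132 ± 0.0283 (SD, n = 5), whose range overlapped neither that of macrophage-like cells nor that of the following type. Monocyte-like cells, with 20 cells in the control and CKD 1 alone, were at 0.238 and 0.722 for Slc11a1. Neutrophil-like cells reached 20 in AKI 1, AKI 2 and CKD 2 only (49, 42 and 27 cells). Injured tubule-like cells did so in the control, AKI 1 and AKI 2 only (29, 36 and 43 cells). Their means thus cover fewer phases or libraries than those with n = 5, which mix control, AKI and CKD. Slc11a2, the transporter used by most cells, led in injured tubule-like (0.307 ± 0.0301, SD, n = 3), proximal tubule (PT)-like (0.282 ± 0.0307, SD, n = 5) and intercalated (CD IC)-like cells (0.260 ± 0.0432, SD, n = 5). Steap3 was highest in pericyte/fibroblast-like cells at 0.189 ± 0.181 (SD, n = 5), followed by macrophage-like cells at 0.0831 ± 0.0573 (SD, n = 5). For Steap4 the leading types were pericyte/fibroblast-like (0.229 ± 0.204, SD, n = 5), neutrophil-like (0.220 ± 0.138, SD, n = 3) and macrophage-like cells (0.109 ± 0.145, SD, n = 5), with overlapping ranges.

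The 2 ferritin chains were highest in phagocytes and PT-like cells. Fth1 stood at 266 ± 38.8 (SD, n = 3) in neutrophil-like cells, above the range of the 16 others, and at 109.6 ± 17.6 (SD, n = 5) and 109 ± 42.5 (SD, n = 5) in PT-like and macrophage-like cells. Ftl1 stood at 66.0 ± 5.82 (SD, n = 3) in neutrophil-like cells, 64.6 ± 16.2 (SD, n = 5) in macrophage-like cells and 46.5 ± 18.8 (SD, n = 5) in PT-like cells. Within PT-like cells the Ftl1 level was 79.8 in the control, 37.2 and 36.5 in AKI 1 and AKI 2, and 42.5 and 36.7 in CKD 1 and CKD 2, with the control above the 4 other libraries. The lowest Ftl1 level belonged to T lymphocyte-like cells, 8.55 ± 0.763 (SD, n = 5).

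Of the export genes, Slc40a1 (ferroportin) was measured at 0.701 ± 0.0821 (SD, n = 3) in neutrophil-like cells, 0.581 ± 0.185 (SD, n = 5) in PT-like cells and 0.373 ± 0.156 (SD, n = 5) and 0.368 ± 0.0904 (SD, n = 5) in DCT-like and thick ascending limb (TAL)-like cells. In macrophage-like cells it was 0.0642 ± 0.0847 (SD, n = 5), and the drop in the order came after CD IC-like cells, whose range (0.153 to 0.223) did not overlap that of thin limb-like cells (0.0294 to 0.138). Cp was led by injured tubule-like cells at 7.91 ± 0.105 (SD, n = 3), whose range overlapped none of the other 16, then thin limb-like cells at 3.64 ± 1.66 (SD, n = 5) and pericyte/fibroblast-like cells at 1.39 ± 1.13 (SD, n = 5). The injured tubule name is weak. Its list scored 2.312 and the podocyte list 1.75, and 1 of its markers was among the 10 leading genes (Akap12, Ankrd1, Cp, Ncam1 and others). At resolution 1.0 a cluster led by Ncam1, Akap12, Ankrd1 and Cp was named podocyte, at 1.653 against 1.65. Injured tubule-like cells were 0.341% of the control and 0.353% and 0.434% of AKI 1 and AKI 2. Hmox1 was 2.36 ± 0.898 (SD, n = 5) in macrophage-like cells, and its range there (1.34 to 3.37) lay wholly above that of neutrophil-like cells (0.584 to 1.15), the next of the 17. Monocyte-like cells of the control and CKD 1 were at 2.29 and 2.37 for Hmox1, within the macrophage-like range. All these orders are descriptions without a test, and neighbours not named as separate had overlapping ranges, apart from Steap3 in T lymphocyte-like cells (0.000719 to 0.00488) and the next type, injured tubule-like cells, at 0 in all 3 libraries.

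**Figure D2:**
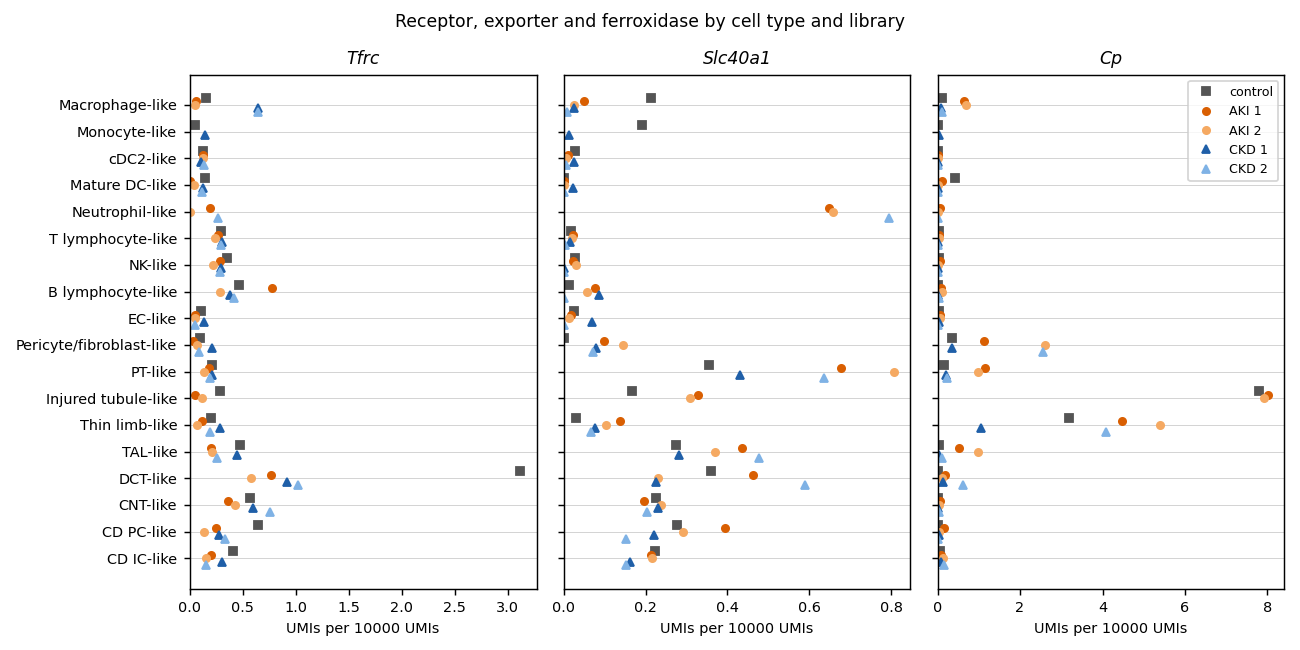
Levels of Tfrc, Slc40a1 and Cp (UMIs per 10000 UMIs, one panel a gene) by cell type, each point a library coloured by control, AKI or CKD. For Tfrc the control DCT-like value of 3.12 stands alone, and for macrophage-like cells the CKD points lie above the AKI points, while for Cp the injured tubule-like points lie above those of all other types.

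Macrophage-like cells numbered 5688: 799 in the control, 789 and 1209 in AKI and 2120 and 771 in CKD. They divided into 6 subclusters, which the 2 phases filled differently. Cells like antigen-presenting macrophages (AM-like, 431, 365, 538, 310 and 192 cells in the control, AKI 1, AKI 2, CKD 1 and CKD 2) made up 46.3% and 44.5% of the AKI cells but 14.6% and 24.9% of the CKD cells. That name was close to a tie, since the AM list scored 1.546 and the resident list 1.42, and no AM marker was among its 10 leading genes (Ccl8, Ccl7, Pf4, Ccl12 and others). One subcluster was led by Ctsk, Mmp9 and Acp5, genes that the study gives to scar-associated macrophages (SM). It held 4.06% and 3.89% of AKI and 16.3% and 16.6% of CKD cells. Infiltrating-like and cycling cells formed the other named groups. In infiltrating-like cells the 6 infiltrating markers summed to 0.668 in the control, 9.12 and 6.42 in AKI and 1.92 and 7.75 in CKD. The same sum in AM-like cells was 0.470 in the control and 1.11 to 2.24 in the other libraries. In AKI cells of the SM subcluster it was 3.63 and 8.07. The infiltrating name is thus weak, most of all in the control and CKD 1. The other subclusters stayed unnamed: one subcluster of low depth, which held 44.1% of the cells of CKD 1, was led by tubular genes, and a small one by keratins of the urothelium.

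The cells that AKI and CKD placed in the SM subcluster differed in markers. Its CKD cells carried the 7 SM markers at 289 and 299 UMIs per 10000 and 6 resident macrophage markers at 0.992 and 0.445, while its AKI cells carried the SM markers at 5.82 and 7.46 and the resident markers at 75.2 and 78.0. Cycling cells differed in the same direction, with SM markers at 1.78 and 1.32 in AKI and 71.5 and 53.0 in CKD and resident markers at 129 and 127 in AKI and 7.27 and 6.31 in CKD. All 21 control cells of the SM subcluster shared their barcode with a deeper cell of CKD 2, so no control value is given for it. SM-like refers to the CKD cells of that subcluster. Of the 7 SM markers, Acp5, Ctsk and Mmp9 are given by the study of these same libraries. Atp6v0d2, Dcstamp, Ocstamp and Slc9b2 are not named there, and the study's further SM marker Spp1 is not in the list. The SM list is not independent evidence of direction.

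Between AKI and CKD, 8 of the 10 genes differed in macrophage-like cells at an adjusted p under 0.05 (edgeR quasi-likelihood test on UMIs summed per library, Benjamini-Hochberg over 12687 genes). Tfrc, Steap4 and Steap3 were higher in CKD, and Cp, Slc11a1, Hmox1, Fth1 and Ftl1 were lower. The share of all genes called in the same fit was 30.1%, and the median log2 fold change was -0.74 over the 10 members and 0.01 over all genes. Since the members were chosen with earlier results of these data known, these shares are no test of the set. The control, with 1 library, entered no test. Every fold change below is CKD over AKI on the log2 scale, with its standard error after the ± sign. In a whole class of cells, fewer cells of a kind and less RNA in each cannot be told apart.

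**Figure D3:**
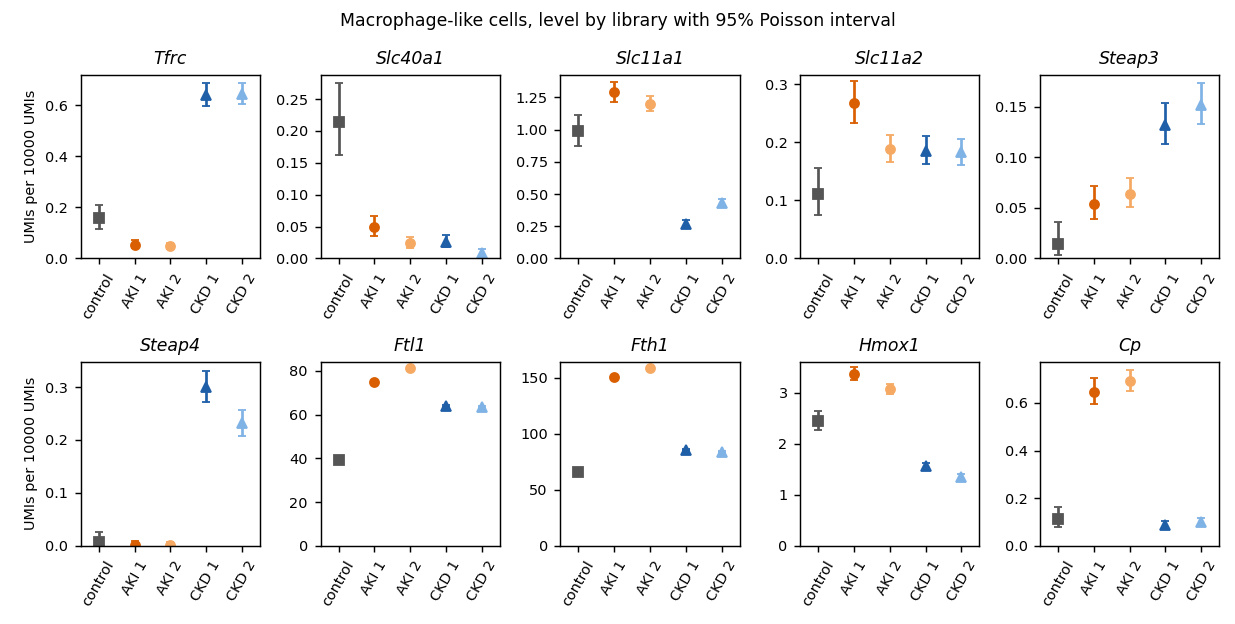
Levels of the 10 genes in macrophage-like cells (UMIs per 10000 UMIs, one panel a gene), one point a library with its exact 95% Poisson interval. Tfrc, Steap3 and Steap4 are highest in the 2 CKD libraries, and Fth1, Ftl1, Cp and Hmox1 are highest in the 2 AKI libraries.

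For the receptor Tfrc, the level in macrophage-like cells was 0.157 in the control, 0.0545 and 0.0489 in AKI 1 and AKI 2, and 0.641 and 0.645 in CKD 1 and CKD 2. The CKD libraries lay close together and above the control and AKI, and the fold change was 3.50 ± 0.15 (edgeR, adjusted p = 0.000405). Sums give deep cells more weight, and as a mean over cells the Tfrc difference was smaller, at 0.191 in the control, 0.0967 and 0.0562 in AKI and 0.419 and 0.426 in CKD. The control value (95% interval 0.114 to 0.210) came from the library with the highest connecting tubule marker sum in these cells, the 20.01 UMIs per 10000 above. CNT-like cells were themselves high in Tfrc, and the part of their RNA in that value was not tested. Steap4, a ferric and cupric reductase of inflamed tissue, was close to 0 before CKD: it was found at 0.00712 in the control, 0.00237 and 0.00226 in AKI 1 and AKI 2, and 0.30 and 0.231 in CKD 1 and CKD 2. Pooled over libraries this was 5 UMIs in AKI and 732 in CKD, a ratio of 115 with a 95% counting interval of 48.9 to 354 (fitted fold change 6.64 ± 0.28, edgeR adjusted p = 0.000443). With so few UMIs in AKI, Steap4 passed the filter on expression through the CKD libraries. Only a higher level in CKD could then be called. Steap3, the endosomal reductase that pairs with Tfrc in red cell precursors, stood at 0.0142 in the control, 0.0533 and 0.0639 in AKI 1 and AKI 2, and 0.132 and 0.152 in CKD 1 and CKD 2. It was higher in CKD by 1.12 ± 0.20 (edgeR, adjusted p = 0.0102), a call lost without AKI 1 (adjusted p = 0.0857) or AKI 2 (adjusted p = 0.0572).

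Of the 2 metal transporters, the test called Slc11a1. Slc11a1 measured 0.989 in the control, 1.29 and 1.20 in AKI 1 and AKI 2, and 0.266 and 0.430 in CKD 1 and CKD 2, and CKD lay below both the control and AKI (-1.98 ± 0.26, adjusted p = 0.00429 by edgeR). Slc11a2 measured 0.110 in the control, 0.268 and 0.188 in AKI 1 and AKI 2, and 0.185 and 0.183 in CKD 1 and CKD 2. The AKI 2 value almost met those of CKD, and the difference of -0.45 ± 0.21 did not pass (edgeR, adjusted p = 0.164).

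Ferritin was highest in AKI. Fth1 was present at 66.1 in the control, 151 and 159 in AKI 1 and AKI 2, and 85.7 and 83.9 in CKD 1 and CKD 2, with CKD between the control and AKI and no overlap between the phases (-1.02 ± 0.08, edgeR adjusted p = 0.0013). Ftl1 was present at 39.1 in the control, 75.0 and 81.4 in AKI 1 and AKI 2, and 64.0 and 63.3 in CKD 1 and CKD 2, a smaller step of -0.45 ± 0.08 (edgeR adjusted p = 0.0128) that no longer passed without AKI 1 (adjusted p = 0.0649) or AKI 2 (adjusted p = 0.0674). The ratio of Ftl1 to Fth1 UMIs was thus 0.592 in the control, 0.497 and 0.513 in AKI and 0.747 and 0.754 in CKD. With 2 libraries a phase, an exact 2-sided permutation test of this ratio cannot go below p = 0.333. Ftl1 has a near-identical copy, Ftl1-ps1, which was given 1.53% as many UMIs as Ftl1, so how reads were split between them is uncertain.

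On the export side, Cp had its highest level in AKI, at 0.114 in the control, 0.647 and 0.693 in AKI 1 and AKI 2, and 0.0881 and 0.0982 in CKD 1 and CKD 2, with a fold change of -2.99 ± 0.14 (edgeR, adjusted p = 0.000561). Injured tubule markers (6 genes, none at 0) are the list that gave the cells with the most Cp their weak name. In macrophage-like cells they summed to 4.08 in the control, 7.19 and 7.78 in AKI and 4.24 and 4.37 in CKD. Their part in the Cp difference was not tested. Of the 6, Vcam1 was among the 10 leading genes of AM-like cells, so this sum is not a measure of tubular RNA alone. The 7 PT markers were at 0.680 and 0.80 in AKI and at 2.46 and 0.487 in CKD. Slc40a1 was low in every library, at 0.214 in the control, 0.0486 and 0.0241 in AKI 1 and AKI 2, and 0.0258 and 0.00892 in CKD 1 and CKD 2. Its control value (95% interval 0.163 to 0.275) was above the others. It came from the library with the highest connecting tubule marker sum in these cells, and the part of such RNA was not tested. The difference between CKD and AKI in Slc40a1, -1.22 ± 0.62, did not pass (edgeR, adjusted p = 0.197), though it did without CKD 1 (-2.07, adjusted p = 0.00759). Hmox1 stood at 2.45 in the control, 3.37 and 3.08 in AKI 1 and AKI 2, and 1.56 and 1.34 in CKD 1 and CKD 2, lowest in CKD (-1.31 ± 0.12, edgeR adjusted p = 0.00189).

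A part of the macrophage-like cells gave most of the Tfrc UMIs of CKD. SM-like cells gave 61.3% and 71.7% of all Tfrc UMIs of macrophage-like cells in CKD 1 and CKD 2, and 91.4% and 93.8% of the Steap4 UMIs, from 27.7% and 30.8% of all UMIs of the class. Cycling cells gave 26.1% and 23.2% of Tfrc from 28.4% and 29.6% of all UMIs. Without the SM subcluster, 8 of 10 members and 2758 of 12179 genes were called and Tfrc differed by 2.38 ± 0.19 (edgeR adjusted p = 0.00457). Without both the SM and the cycling subcluster, a setting chosen after seeing the data, 290 of 11484 genes and 1 member were called, Cp, at -2.35 ± 0.21 (edgeR adjusted p = 0.0261), while Tfrc was at 1.42 ± 0.42 (adjusted p = 0.131), Fth1 at -0.61 ± 0.14 (adjusted p = 0.0906), Hmox1 at -1.09 ± 0.23 (adjusted p = 0.075) and Slc11a1 at -1.07 ± 0.33 (adjusted p = 0.14). The calls also fell to 0 of 10 members and 6 of 12077 genes with a mitochondrial limit of 15%, where 397 of the 573 cells of the SM subcluster stayed in the class and Tfrc was at 2.56 ± 0.92 (edgeR adjusted p = 0.172), and to 4 of 10 members and 1322 of 12170 genes with doublets kept, where 100 of the 573 did. Most of the SM subcluster cells that left the class fell in clusters left unnamed, 134 at 15% and 472 with doublets kept.

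Within subsets, AM-like and infiltrating-like cells had low Tfrc in both phases. In AM-like cells Tfrc was 0.112 in the control, 0.0365 and 0.0308 in AKI 1 and AKI 2, and 0.0171 and 0.0368 in CKD 1 and CKD 2. In infiltrating-like cells it was 0.0514 in the control, 0.0551 and 0.0310 in AKI 1 and AKI 2, and 0.0539 and 0.0754 in CKD 1 and CKD 2. The phases overlapped in both, with fold changes of -0.43 ± 0.50 (edgeR adjusted p = 0.664) and 0.62 ± 0.46 (adjusted p = 0.446). In cycling cells Tfrc was 0.175 in the control, 0.0774 and 0.0909 in AKI 1 and AKI 2, and 0.588 and 0.506 in CKD 1 and CKD 2, higher in CKD by 2.58 ± 0.23 (edgeR adjusted p = 5.44e-05). In the SM subcluster it was 0.0443 and 0.0378 in AKI 1 and AKI 2 and 1.42 and 1.5 in CKD 1 and CKD 2 (5.12 ± 0.31, edgeR adjusted p = 8.86e-07). The 2 AKI values there rested on 2 and 3 UMIs. The CKD libraries lay close together and far above AKI.

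**Figure D4:**
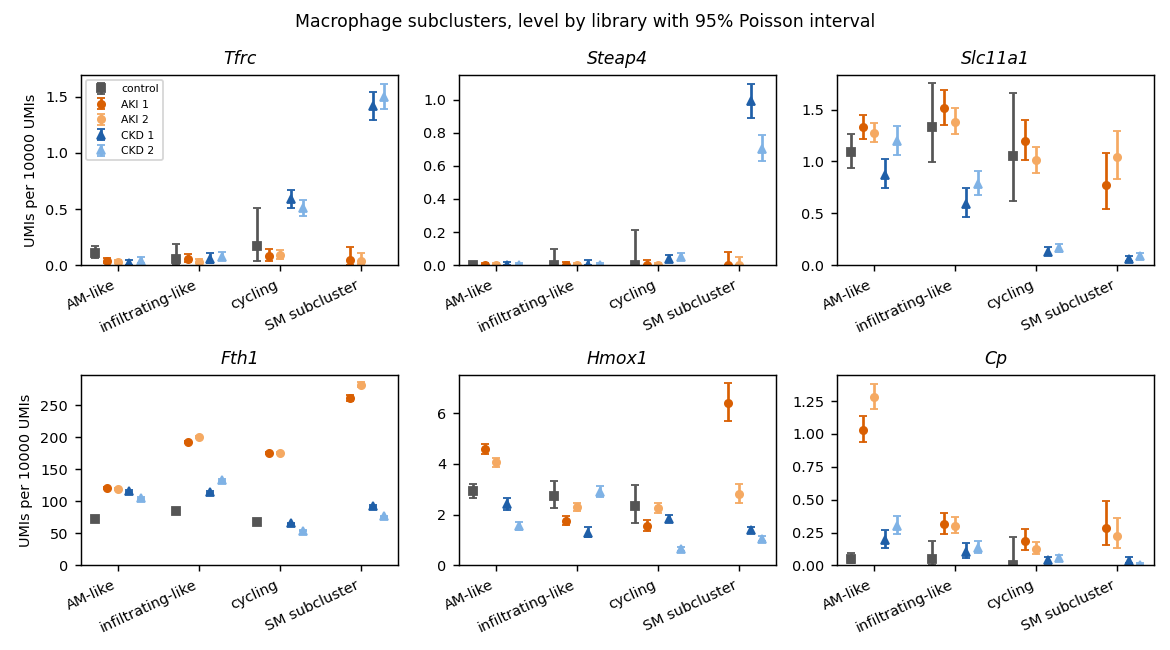
Levels of Tfrc, Steap4, Slc11a1, Fth1, Hmox1 and Cp (UMIs per 10000 UMIs) in 4 macrophage subclusters, one point a library with its exact 95% Poisson interval. Tfrc and Steap4 stand out in the CKD libraries of the SM subcluster, and Slc11a1 is lower in CKD than in AKI in the cycling and SM subclusters; the control of the SM subcluster is left out.

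Steap4 was found in the same cells. It was 0 in both AKI libraries of the SM subcluster and 0.99 and 0.704 in CKD, at least 34.5-fold higher against 3 counts over the AKI group, and in cycling cells 0 in AKI and 0.0348 and 0.0464 in CKD, at least 5.37-fold higher. The fitted Steap4 call passed in the SM subcluster and in cycling cells, where it was lost without AKI 2. With 0 UMIs in AKI, Steap4 entered these 2 fits through the CKD libraries, so only a higher level in CKD could be called. Both calls are part of the member counts of these subclusters. After each cell was thinned to 1000 UMIs, 8.41% and 14.1% of SM-like cells of CKD 1 and CKD 2 had a Tfrc UMI (42.0% and 86.7% before thinning). In T lymphocyte-like cells of the same libraries the thinned shares were 2.50% and 2.48% (12.0% and 15.6% before), with median depths of 3777 and 5563 UMIs against 3946 and 34834 in SM-like cells. Cycling macrophage-like cells had thinned shares of 5.32% and 1.61% in CKD 1 and CKD 2, against 0% and 3.85% in AKI 1 and AKI 2. For the AKI 1 and AKI 2 cells of the SM subcluster the thinned shares were 0% and 2.13%.

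Cp and Hmox1 differed in AM-like cells as well. In AM-like cells 2 of 9 members tested were called (8.38% of 9918 genes), Cp at -2.39 ± 0.21 (edgeR adjusted p = 0.000256) and Hmox1 at -1.34 ± 0.19 (adjusted p = 0.0026). There Cp was 0.0470 in the control, 1.03 and 1.28 in AKI 1 and AKI 2, and 0.194 and 0.302 in CKD 1 and CKD 2, so that AM-like cells of AKI were well above the control. Hmox1 was 2.93 in the control, 4.58 and 4.06 in AKI 1 and AKI 2, and 2.42 and 1.56 in CKD 1 and CKD 2. In infiltrating-like cells 3 of 8 were called (11.4% of 8846 genes), each lower in CKD: Cp (-1.42 ± 0.26, edgeR adjusted p = 0.00966), Slc11a1 (-1.14 ± 0.19, adjusted p = 0.00783) and Fth1 (-0.74 ± 0.11, adjusted p = 0.00375). The Slc11a1 call there was lost without AKI 1 (adjusted p = 0.0558). Marker sums (UMIs per 10000) also stood apart between the phases in these subclusters. The 4 AM markers summed to 590 and 574 in AKI and 293 and 377 in CKD in AM-like cells. In infiltrating-like cells the 6 resident markers summed to 126 and 127 in AKI and 63.8 and 54.2 in CKD, and the 5 cycling markers to 0.872 and 0.829 in AKI and 5.35 and 3.87 in CKD. Their part in these results was not tested.

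In the cycling and SM subclusters, whose AKI and CKD cells differed in marker genes as given above, 7 of 9 members were called in each (32.4% of 9619 and 31.2% of 8958 genes). Fth1 measured 262 and 282 in AKI 1 and AKI 2 and 92.8 and 76.3 in CKD 1 and CKD 2 in the SM subcluster (-1.73 ± 0.17, edgeR adjusted p = 2.87e-05). In cycling cells Fth1 measured 175 and 175 in AKI 1 and AKI 2 and 65.7 and 53.9 in CKD 1 and CKD 2 (-1.64 ± 0.12, adjusted p = 1.89e-05). AM-like cells showed 121 and 119 in AKI 1 and AKI 2 and 117 and 106 in CKD 1 and CKD 2, a fold change of -0.32 ± 0.12 that did not pass (edgeR adjusted p = 0.14). Slc11a1 measured 0.775 and 1.05 in AKI 1 and AKI 2 and 0.0603 and 0.0846 in CKD 1 and CKD 2 in the SM subcluster (-3.70 ± 0.27, edgeR adjusted p = 3.58e-06). In cycling cells Slc11a1 measured 1.19 and 1.01 in AKI 1 and AKI 2 and 0.131 and 0.165 in CKD 1 and CKD 2 (-2.97 ± 0.20, adjusted p = 1.07e-05). Among the 4 named subsets, SM-like cells had the highest Tfrc and Steap4 levels and the lowest Slc11a1 level in each CKD library. Ftl1 was lower in CKD in the same 2 subclusters, by -0.89 ± 0.19 and -0.65 ± 0.10 (edgeR adjusted p = 0.00504 and 0.00109), the first of which was lost without CKD 1 (adjusted p = 0.0536) or CKD 2 (adjusted p = 0.103). Cp was lower in both (-3.75 ± 0.68 and -1.79 ± 0.36, edgeR adjusted p = 0.0016 and 0.00532), Hmox1 in the SM subcluster (-1.92 ± 0.31, adjusted p = 0.00078), and Steap3 was higher in cycling cells (1.53 ± 0.31, adjusted p = 0.00584). These values moved with single libraries. The Cp level of the SM subcluster rested on 13 and 2 UMIs in CKD, and its fold change was -5.65 without CKD 1 and -2.78 without CKD 2. In the same subcluster Hmox1 was at -1.24 without AKI 1 and Ftl1 at -0.59 without AKI 2, and in cycling cells Steap3 was at 2.26 without AKI 2.

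Outside macrophages, few members passed the test. Over 14 other cell types with at least 20 cells in each AKI and CKD library, 2 of 91 tests of a member were called by edgeR, 15 had an unadjusted p under 0.05, and DESeq2 called 5. Both calls were Cp. In PT-like cells, where 0.1% of 12000 genes were called, Cp was 0.157 in the control, 1.15 and 0.983 in AKI 1 and AKI 2, and 0.206 and 0.235 in CKD 1 and CKD 2, highest in AKI without overlap (-2.24 ± 0.18, edgeR adjusted p = 0.00863). The injured tubule markers of these cells summed to 0.551 in the control, 7.77 and 6.22 in AKI and 5.45 and 4.88 in CKD, and their part was not tested. In T lymphocyte-like cells, where 10.5% of 13751 genes were called, Cp was 0.0293 in the control, 0.0334 and 0.0366 in AKI 1 and AKI 2, and 0.0122 and 0.00573 in CKD 1 and CKD 2, which is low in every library (-2.0 ± 0.39, edgeR adjusted p = 0.0376), and this call was lost without AKI 1 (adjusted p = 0.293) or AKI 2 (adjusted p = 0.277). In the 12 remaining types 0 of 74 tests were called by edgeR, with 11 at an unadjusted p under 0.05 and 3 called by DESeq2, and the share of all genes called was 1.55% in DCT-like, 0.846% in NK-like, 0.215% in CNT-like, 0.0312% in type 2 conventional dendritic (cDC2)-like, 0.0306% in B lymphocyte-like, 0.0174% in TAL-like and 0% in the other 6.

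**Figure D5:**
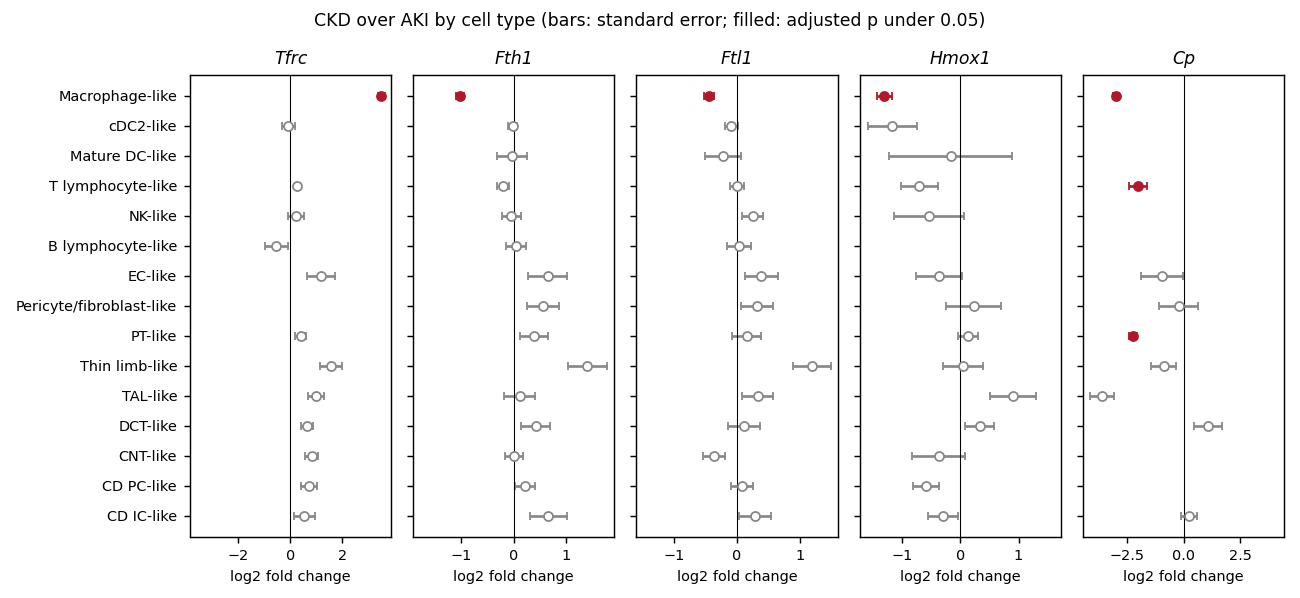
Log2 fold change of CKD over AKI (± standard error) for Tfrc, Fth1, Ftl1, Hmox1 and Cp by cell type, filled points having an adjusted p under 0.05. Tfrc is filled in macrophage-like cells only, at 3.50, and Cp is filled in macrophage-like, PT-like and T lymphocyte-like cells, at -2.99, -2.24 and -2.0.

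Tfrc was not called in T lymphocyte-like, PT-like or EC-like cells. In T lymphocyte-like cells it stood at 0.297 in the control, 0.266 and 0.234 in AKI 1 and AKI 2, and 0.305 and 0.294 in CKD 1 and CKD 2 (0.26 ± 0.09, edgeR adjusted p = 0.145). In PT-like cells Tfrc stood at 0.208 in the control, 0.180 and 0.137 in AKI 1 and AKI 2, and 0.207 and 0.192 in CKD 1 and CKD 2 (0.40 ± 0.21, edgeR adjusted p = 0.491), and in EC-like cells at 0.108 in the control, 0.0466 and 0.0474 in AKI 1 and AKI 2, and 0.137 and 0.0527 in CKD 1 and CKD 2 (1.18 ± 0.54, adjusted p = 0.834). Among T lymphocyte-like cells the cycling ones had more Tfrc than the rest in each library, 0.809 in the control, 0.393 and 0.343 in AKI 1 and AKI 2, and 0.385 and 0.393 in CKD 1 and CKD 2 against 0.270 in the control, 0.248 and 0.216 in AKI 1 and AKI 2, and 0.264 and 0.261 in CKD 1 and CKD 2. The difference between macrophage-like cells and, in turn, T lymphocyte-like, PT-like and EC-like cells was tested as an interaction of cell type and phase with the library as a block. Against T lymphocyte-like cells, where 17.7% of 14431 genes were called, 3 of 10 members passed: Tfrc by 3.34 ± 0.14 (edgeR adjusted p = 6.59e-05), Steap4 by 6.07 ± 1.18 (adjusted p = 0.0124) and Fth1 by -0.69 ± 0.12 (adjusted p = 0.00714). The Steap4 call was lost without AKI 1 (adjusted p = 0.0543) or AKI 2 (adjusted p = 0.175) and the Fth1 call without AKI 2 (adjusted p = 0.195), and Fth1 was at -1.09 without CKD 2. Against PT-like cells, 1.21% of 13839 genes and 2 of 10 members passed, Tfrc by 3.07 ± 0.21 (edgeR adjusted p = 0.0397) and Steap4 by 7.54 ± 0.73 (adjusted p = 0.0478), both lost without AKI 1 (adjusted p = 0.487) or AKI 2 (adjusted p = 0.490). Against EC-like cells, edgeR called 0 of 10 members and 3.05% of 13141 genes, with 4 members at an unadjusted p under 0.05 and no other tool run, and Tfrc was at 2.28 ± 0.57 (adjusted p = 0.0917). The Cp difference of macrophage-like cells was not shown to exceed that of PT-like (-0.79 ± 0.19, edgeR adjusted p = 0.0975) or T lymphocyte-like cells (-0.82 ± 0.32, adjusted p = 0.129).

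The members were set beside 50 other genes of iron and heme handling, also listed with earlier results of these data known. In macrophage-like cells 38 were tested, 2 were higher and 10 lower in CKD, and their median log2 fold change was -0.13 against 0.01 over all genes. The share called, 12 of 38, is close to the 30.1% of all genes in the same fit. Lower were 3 of 12 uptake genes, 5 of 9 genes that control iron, 1 of 3 of heme breakdown and 1 of 2 plasma carriers, and higher were 1 of 3 of storage and 1 of 8 of heme synthesis, while the 1 export gene tested was not called. The 8 with the largest changes were all lower in CKD by edgeR: the hemoglobin scavenger receptor Cd163 (-3.68 ± 0.62, adjusted p = 0.00902), transferrin itself Trf (-2.87 ± 0.24, adjusted p = 0.00145), Hfe (-2.14 ± 0.17, adjusted p = 0.00136), which sets hepcidin in the liver, Nfe2l2 (-1.79 ± 0.20, adjusted p = 0.00289) and Bach1 (-1.14 ± 0.22, adjusted p = 0.0133), the activator and repressor of Hmox1, the mitochondrial importer Slc25a37 (-1.31 ± 0.25, adjusted p = 0.0132), the biliverdin reductase Blvrb (-1.09 ± 0.15, adjusted p = 0.00471) and the hemopexin receptor Lrp1 (-1.03 ± 0.22, adjusted p = 0.0202). The core of the antioxidant response element to which Nfe2l2 binds (TGACNNNGC, both strands) was found in 0 of 13 promoter windows of the 7 members with a window (RefSeq, GRCm38.p6, 250 bases before to 50 after the start), and in 12.4% of all 32851 windows. Slc40a1, Slc11a2 and Hmox1 had no window. Sequence beyond the windows was not searched, and any role of Nfe2l2 in these genes was not tested.

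By subset, the same list gave 1 gene higher and 4 lower of 30 in AM-like cells, 0 and 5 of 30 in infiltrating-like cells, 2 and 10 of 30 in cycling cells and 3 and 13 of 31 in the SM subcluster. Of all genes, 8.38%, 11.4%, 32.4% and 31.2% were called in the same fits. The largest changes by edgeR in AM-like cells were Cd163 (-3.14 ± 0.70, adjusted p = 0.0235), Spic (-1.74 ± 0.20, adjusted p = 0.00082), a factor of red pulp macrophages, and Trf (-1.62 ± 0.15, adjusted p = 0.000311). Infiltrating-like cells were led by Trf (-2.40 ± 0.21, adjusted p = 0.000516), Nfe2l2 (-1.15 ± 0.20, adjusted p = 0.00874) and Blvrb (-1.04 ± 0.17, adjusted p = 0.00635). Cycling cells were led by Nfe2l2 (-3.19 ± 0.21, adjusted p = 1.2e-05), Trf (-3.03 ± 0.28, adjusted p = 7.17e-05) and Spic (2.58 ± 0.39, adjusted p = 0.00111), the last of them higher in CKD. In the SM subcluster the leaders were hepcidin, Hamp (-7.70 ± 0.77, adjusted p = 2.87e-05), haptoglobin, Hp (-6.58 ± 0.72, adjusted p = 5.21e-05), and Hfe (-3.44 ± 0.58, adjusted p = 0.00101). The AKI and CKD cells of the cycling and SM subclusters differed in markers, as given above. Among the other cell types, 3 genes were higher and 2 lower of 34 in T lymphocyte-like cells. The lower genes were Trf (-1.69 ± 0.24, edgeR adjusted p = 0.0233) and Nfe2l2 (-0.54 ± 0.09, adjusted p = 0.0315), and 1 was lower of 26 in CNT-like cells, lipocalin 2, Lcn2 (-1.92 ± 0.26, adjusted p = 0.0116).

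As a description, the genes whose levels were most like each member were found over 84 combinations of cell type and library that share libraries and free RNA, by Pearson's r of log2(UMIs per 10000 + 0.1) among 5010 genes. Slc11a1 was closest to C5ar1 (0.94), Cd300ld (0.91) and Igsf6 (0.90) and Cp to Nbl1 (0.87), Cpe (0.87) and Ncam1 (0.86). Ftl1 lay closest to its copy Ftl1-ps1 (0.93), Sirpa (0.79) and Atp6v1g1 (0.78), and Fth1 to Msrb1 (0.76), Ninj1 (0.75) and Ftl1 (0.75). Steap3 was closest to Cxcl14 (0.81), Col14a1 (0.80) and Olfml3 (0.76), and Steap4 to Tnfaip6 (0.71), Pi16 (0.69) and Inhba (0.66). Slc40a1 was closest to Slc27a4 (0.80), Grina (0.79) and Neu1 (0.79), Slc11a2 to Tpp1 (0.78), Prdx1 (0.75) and Trappc2l (0.75) and Hmox1 to Pgd (0.76), Cd14 (0.74) and Cebpa (0.72). Tfrc had the weakest likeness, with Prps2 (0.62), Uqcrh (0.61) and Cyfip2 (0.60).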

How the data were processed

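Dissociated kidney cells of 5 libraries were sequenced with 3′ droplet chemistry. The deposited values are raw UMI counts per gene and cell that the authors made with Cell Ranger (version 7.2.0 per the submitters' processing notes, 5.0.0 in the headers of 4 files and no version in that of the control) and GRCm39. The control's gene list names mm10 instead, so its reference may differ. Library totals were 90028670 to 121316769 UMIs. Here, cells with at least 200 genes and at most 30% mitochondrial UMIs were kept, doublets were removed by a score against simulated doublets (6325 cells), and cells were clustered (3000 variable genes, 40 principal components corrected by library, resolution 1.5), leaving out the members and the listed iron genes. Free RNA was not removed. Clusters were named "X-like" from listed markers, by naming rules and subclustering settings settled after the clusters were seen. Members and lists were chosen with earlier results of these data known. UMIs were summed per library and cell type with at least 20 cells, and CKD was compared with AKI by the edgeR quasi-likelihood test (version 4.0.16, R 4.3.3, TMM, filterByExpr, Benjamini-Hochberg over all genes tested, called at an adjusted p under 0.05). Script steps were tested on simulated counts. Alternatives were DESeq2 (version 1.42.0), its size factors, no filter, the replicate number as a block, the study's stricter rule for calling genes (a change of 1 or more on the log2 scale at an adjusted p under 0.01), other cell filters, no correction by library, resolution 1.0, and leaving out each library. Named in the text are all members, of the other iron genes the called ones with the largest fold change (up to 8 in macrophage-like cells, 3 elsewhere), and the 3 genes most like each member, except 1 item that is not reported here. Intervals cover counting error only. Elements were read from GRCm39 with GENCODE vM39.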

Additional observations from a re-analysis of the deposited data

Results flagged for a closer look

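The change from AKI to CKD differed between macrophage-like cells and another cell type for 5 pairs, each by a test of the interaction (edgeR, library as a block, 2 libraries a phase). The values below are the log2 fold change of CKD over AKI in macrophage-like cells minus that in the other type.

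Against PT-like cells, the difference was 3.07 for Tfrc (edgeR adjusted p = 0.0397) and 7.54 for Steap4 (adjusted p = 0.0478), and neither passed when AKI 1 (adjusted p = 0.487 for both) or AKI 2 (adjusted p = 0.490 for both) was left out. Against T lymphocyte-like cells it was 3.34 for Tfrc (adjusted p = 6.59e-05), 6.07 for Steap4 (adjusted p = 0.0124) and -0.69 for Fth1 (adjusted p = 0.00714). Of these, Tfrc passed without any single library, Steap4 was lost without AKI 1 (adjusted p = 0.0543) or AKI 2 (adjusted p = 0.175), and Fth1 was lost without AKI 2 (adjusted p = 0.195) and was at -1.09 without CKD 2. Steap4 rested on 6 UMIs in AKI and 13 in CKD in T lymphocyte-like cells, on 30 and 24 in PT-like cells, and on 5 and 732 in macrophage-like cells. The cells of the SM subcluster, which gave 61.3% and 71.7% of the Tfrc UMIs of macrophage-like cells in CKD, are part of these sums.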

How the results depend on the processing

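Alternatives were run for all 10 members in macrophage-like cells and for the called members elsewhere, and none of these values changed direction. In macrophage-like cells (8 of 10 members and 3819 genes called), 4 members were called with doublets kept, 0 with a mitochondrial limit of 15% and 1 without the SM and cycling subclusters, the last chosen after seeing the data; the genes called were then 1322, 6 and 290, and 1313 by the call rule of the study. Leaving out 1 library gave 6 to 9 members and 1043 to 5465 genes. Of the 573 cells of the SM subcluster, 100 stayed macrophage-like with doublets kept and 397 at 15%. With doublets kept, 472 of them fell in clusters left unnamed and 0 were dropped by the filter. At 15%, 134 fell in unnamed clusters and 38 were dropped by the filter. In the first setting a cluster of 1392 cells led by Ctsk, Acp5 and Mmp9 stayed unnamed because no marker set stood out (macrophage list score 0.481). For the other cell types (2 members, 1650 genes), the call rule of the study gave 1 and 52, no filter 6 and 6166, DESeq2 5 members, no correction by library 1 member, and leaving out 1 library 2 to 21 members and 381 to 17755 genes. For the subsets (19 members, 7752 genes), the study's rule gave 3645 genes and DESeq2 4597. For the differences between cell types (5 members, 3125 genes), no filter gave 12 and 4774, and leaving out 1 library 1 to 24 and 696 to 10826; DESeq2 was not run there. The causes of these shifts were not tested. The labels do not say whether a replicate number pairs libraries between phases. Deviations of same-numbered libraries correlated at -0.11 to 0.25, which with 2 libraries a phase cannot settle whether they are paired. With the replicate number as a block, 8 members and 3438 genes were called in macrophage-like cells, 21 members in the subsets, and 3 members and 2693 genes in the other cell types; no crossed pairing was run. With 2 libraries a phase and 1 control library, the control entered no test, and members near 0 UMIs in a cell type could not be compared there. The planned comparison of protein sequences was not run.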

Other observations

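Some of the other listed iron genes also changed differently in macrophage-like cells than in another cell type between AKI and CKD (edgeR interaction test with the library as a block, the values being differences of log2 fold changes). Transferrin (Trf) was lower by -3.27 ± 0.37 relative to EC-like cells (edgeR adjusted p = 0.0328) and by -3.11 ± 0.28 relative to PT-like cells (adjusted p = 0.0478). Hfe differed by -2.18 ± 0.26 (adjusted p = 0.0328) and Nfe2l2 by -1.60 ± 0.22 (adjusted p = 0.0331) relative to EC-like cells. Relative to T lymphocyte-like cells, the mitochondrial iron importer Slc25a37 differed by -1.41 ± 0.22 (adjusted p = 0.00516), Nfe2l2 by -1.15 ± 0.20 (adjusted p = 0.00736) and Ncoa4, the receptor that delivers ferritin to the lysosome, by 1.12 ± 0.13 (adjusted p = 0.00152). These sums include the cells of the SM and cycling subclusters, and how far these differences rest on them was not tested.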
